A study of Mus musculus and Homo sapiens
Mus musculus with 12 samples.

Results

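The nuclei described here are GABA nuclei of the mouse brain that remain once 3 groups of forebrain GABA markers are set aside, and they are called residual GABA nuclei. They had at least 3 unique fragment identifiers (UFIs) of Gad1 and Gad2 together per 10000 UFIs of the nucleus, under 2 per 10000 of Rgs9, under 5 per 10000 each of Adarb2 and Erbb4, and 0 Lhx6 UFIs. The rule kept 357 of 11198 nuclei, or 3.19%. A UFI marks a cDNA fragment, so that each fragment is counted once whatever its amplification. Because the rule uses measured counts, the levels of these 6 genes are given as a description and no test of them is reported.

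Neurons that release GABA make it with the decarboxylases encoded by Gad1 and Gad2, load it into vesicles with the transporter encoded by Slc32a1, and take it up again with transporters such as that of Slc6a11. Rgs9, a regulator of G-protein signalling, marks the medium spiny projection neurons of the striatum. Adarb2, Erbb4 and Lhx6 are used here as markers of interneurons of the cortex and hippocampus, to which they need not be confined. Lhx6 is a transcription factor of the interneurons born in the medial ganglionic eminence. GABA neurons lacking all 4 markers are found in the thalamus, hypothalamus, midbrain, hindbrain and cerebellum, and in parts of the amygdala and septum.

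The nuclei came from 7 libraries of the brain of wild-type C57BL/6J male mice aged 6 to 8 weeks, made by snHH-seq, which reverse transcribes total RNA of fixed nuclei with random primers. Of the 7 libraries, 4 were from frozen and 3 from fresh brain, and 3 were made with a preindexed primer and 4 without. Frozen brain without preindex, frozen brain with preindex and fresh brain without preindex had 2 libraries each, and fresh brain with preindex had 1. No source used here says which libraries came from which animal or brain part, so p-values measure the spread between libraries, which may be technical. Titles were used for the primer, since in 4 libraries the title and the treatment label name opposite primers, while barcode length followed the titles, with 40 bases where the title gives a preindex (3 libraries) and 30 elsewhere (4 libraries).

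The libraries held between 8605214 and 42439731 UFIs. Residual GABA nuclei ranged from 4578 to 62873 UFIs each, and their medians were 13230 UFIs and 3693 genes. Summed over these nuclei, a library gave between 439129 and 1495722 UFIs. Of the 21 pairs of libraries, 7 shared a cell barcode, 32 barcodes in all, and no barcode of a residual GABA nucleus was shared.

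UFIs of both Gad1 and Gad2 were found in 304 of the 357, which the rule largely fixes. Slc32a1, which the rule did not use, had a UFI in 54.3% of them, against 0.889% of 450 glutamatergic nuclei selected by Slc17a6, with median depths of 13230 and 13646 UFIs. In 6 nuclei the vesicular glutamate transporters Slc17a6, Slc17a7 and Slc17a8 reached 3 UFIs per 10000 together, and no nucleus had 10 or more UFIs of kidney and liver genes, which 497 nuclei of the 7 libraries did.

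The thresholds cut through a continuous range. Of 2700 nuclei with enough Gad1 and Gad2, 1810 passed on Rgs9, 1162 of those on Adarb2, 425 on Erbb4 and 357 on Lhx6. The 68 nuclei lost at the last step included 35 with a single Lhx6 UFI. The closest nuclei inside and outside lay at 3.00 and 2.99 UFIs per 10000 for Gad1 and Gad2, at 1.99 and 2.02 for Rgs9, at 4.62 and 5.21 for Adarb2 and at 4.97 and 5.08 for Erbb4.

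Of the genes given with the rule as markers, Nova1, a neuronal splicing factor, was at 3.35 ± 0.972 UFIs per 10000 (mean ± SD over 7 libraries) in residual GABA nuclei. It was at 1.56 ± 0.275 in GABA nuclei with Rgs9, at 2.06 ± 0.189 in GABA nuclei with interneuron markers and at 2.55 ± 0.588 in Slc17a6 nuclei. Baiap3, a Munc13-related protein of vesicle release, was at 0.257 ± 0.128, and Glra3, a glycine receptor subunit, at 0.349 ± 0.107. Baiap3 was at 0.250 ± 0.0841 in GABA nuclei with interneuron markers, and Glra3 at 0.569 ± 0.0996 in Slc17a6 nuclei. The mean of Nova1 was thus the highest of the 4 classes, and those of Baiap3 and Glra3 were below that of Slc17a6 nuclei. These levels are a description, with no test of the differences between classes.

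The selected nuclei were a mixture. Clustering them alone with the Leiden algorithm gave 9 groups, numbered by size, which are described by their leading genes without a test. Of these, 3 carried the markers of another class: group 4 those of medium spiny neurons, group 7 those of cortical interneurons and group 8 those of Purkinje cells, the GABA output neurons of the cerebellar cortex. They hold 91 of the 357 nuclei, and results are given below with and without them where it matters. The markers of groups 4 and 7 go against a reading of the set as subcortical GABA neurons outside the striatum and cerebral cortex. Those of group 8 are of a cell type of the cerebellar cortex.

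Group 1 was the largest, with 73 nuclei from all 7 libraries. Its leading genes included Gabrq, the theta subunit of the GABA-A receptor, at 0.574 UFIs per 10000 against 0.0447 in the other residual GABA nuclei. It also led in Dlk1, an imprinted gene, at 0.752, and in Esr1, the estrogen receptor alpha, at 0.722 against 0.193. Baiap3 was at 0.643 in this group, with a UFI in 52.1% of its nuclei at a median depth of 11698 UFIs, against 0% of the nuclei of group 8 at 30274. Peg3, an imprinted zinc finger gene, was at 7.65.

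Group 2, with 57 nuclei, was led by the transcription factor gene Lef1, by Otx2os1, by Tfap2b and by the receptor gene Kit. Gata3 had a UFI in 38.6% of its nuclei and Tal1 in 26.3%, both transcription factors of GABA neurons in the midbrain and hindbrain, and Sox14 in 17.5%, at a median depth of 15076 UFIs. Group 8, with deeper nuclei, had no UFI of these 3 genes. They were picked from a list of 11 midbrain and hindbrain GABA factors, and the rest of that list is not given here for group 2. Although 4 of 6 genes on the list of thalamic glutamatergic markers were at least 2-fold above the other residual nuclei, Slc17a6 had a UFI in 1.75% of the nuclei and the group was given no name. Group 5, with 43 nuclei, was led by the neurofilament genes Nefm and Nefh, by Syt2 and by the glycine receptor gene Glra1, at 1.12. Slc6a5, the glycine transporter of inhibitory terminals, was at 0.953 in this group and at most 0.103 in any other, and Nova1 reached 6.37.

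Groups 3 and 6, with 51 and 32 nuclei, had no nuclei in either frozen library without preindex. Group 3 was led by Ccdc187, Spag16, the cation channel gene Trpc4 and Ddo, the D-aspartate oxidase gene, and had Zic1, a transcription factor gene, at 1.01. Group 6 was led by the chloride channel gene Ano2, by the neurotrophin gene Ntf3 and by Clic4, with the transcription factor Meis2 at 11.3. Group 9, with 10 nuclei, was led by Mob3b, Col6a3 and Met, with 5 of 7 oligodendrocyte markers at least 2-fold above the other residual nuclei but none among its 10 leading genes. These 3 groups were given no name.

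Group 4, with 43 nuclei, had 9 of 11 medium spiny neuron markers at least 2-fold above the other residual nuclei, and is medium spiny-like. Penk, which encodes proenkephalin, was at 1.97 against 0.0655, and the retinoic acid receptor gene Rarb at 2.48 against 0.339. Group 7, with 25 nuclei, had 8 of 17 interneuron markers at least 2-fold higher, Erbb4 of the rule among them, and is interneuron-like. It had Sox6 at 20.3 and somatostatin (Sst) at 2.76, although the rule required 0 Lhx6 UFIs; its median depth was 8674 UFIs, the lowest of the groups.

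Group 8, with 23 nuclei, had all 6 Purkinje cell markers at least 2-fold higher and is Purkinje-like. Car8 was at 40.7 UFIs per 10000 against 0.184 in the other residual nuclei, and Itpr1, an intracellular calcium release channel, at 161 against 2.32. Its nuclei were the deepest, with a median of 30274 UFIs, and gave 11.4% of all UFIs of the residual GABA nuclei from 6.44% of the nuclei. All 23 came from the 4 libraries without preindex, 12 and 6 from the frozen and 1 and 4 from the fresh. The 3 libraries with preindex had 0 of 203 nuclei in this group, which allows a share of up to 1.48%.

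**Figure D1:**
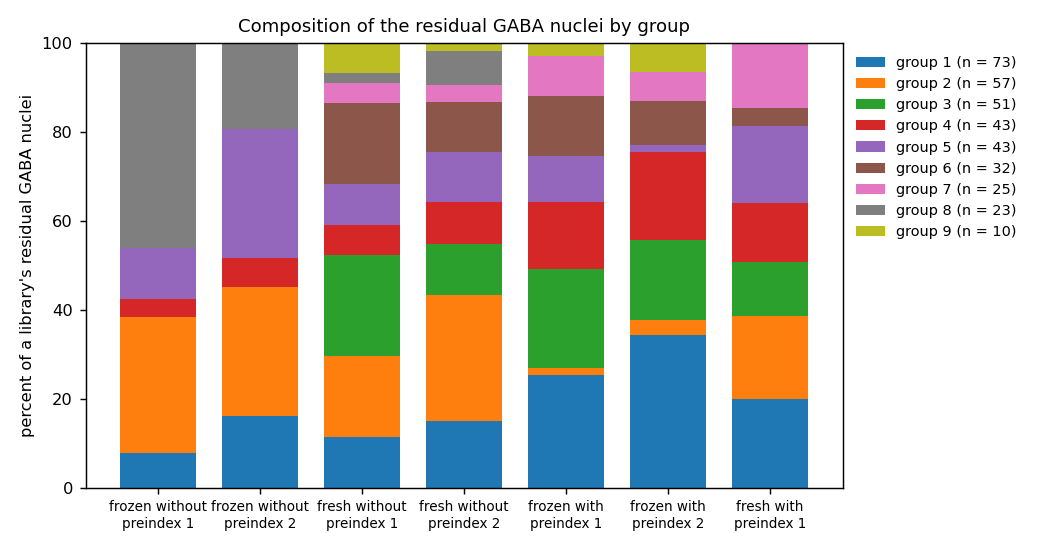
Share of the residual GABA nuclei of each library (y axis, percent) in the 9 groups (colours, with the number of nuclei), for 4 libraries without preindex on the left and 3 with preindex on the right (x axis). Group 8 appears only on the left, and takes 46.2% and 19.4% of the nuclei in the frozen libraries without preindex, which hold none of groups 3, 6, 7 and 9.

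**Figure D2:**
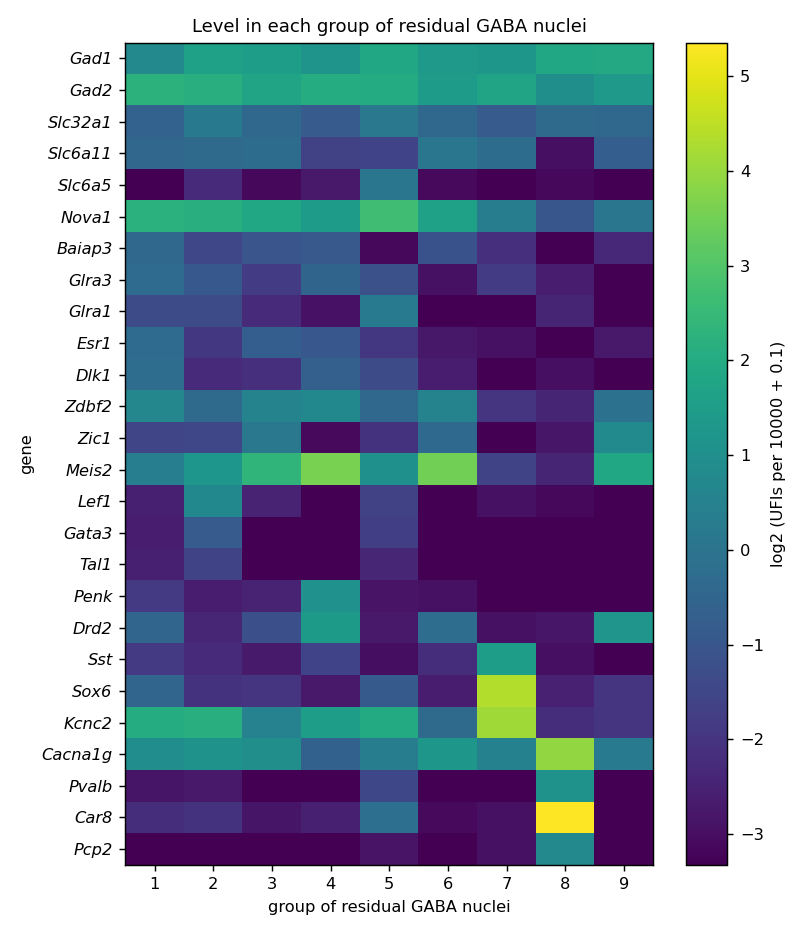
Level of 26 genes (rows) in the 9 groups of residual GABA nuclei (columns), as log2 of UFIs per 10000 plus 0.1 (colour). Gad1 and Gad2 are present in every group, while Car8 and Pcp2 stand out in group 8, Sox6 and Sst in group 7, Penk in group 4 and Slc6a5 in group 5.

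The borders of the groups depended on the settings. A resolution of 0.3 in place of 0.6 gave 6 groups, with an adjusted Rand index of 0.505 against the 9 groups, a resolution of 1.2 gave 12 groups, with an index of 0.890, and 15 components in place of 30 gave 10, with an index of 0.757. At least 95.7% of group 8 stayed together under each of these, as did 100% of group 7. Other groups broke up more. Of group 4, 55.8% stayed together at a resolution of 1.2 and 65.1% with 15 components, and of group 3, 62.75% at a resolution of 1.2.

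Regional transcription factors ranged from no UFI to several per 10000. Of the 10 Hox genes listed, 8 had no UFI in any residual GABA nucleus which allows up to 0.00505 UFIs per 10000, and none exceeded a mean of 0.000955. Of 10 hypothalamic factors, 8 were under 0.1, and Esr1 was at 0.286 ± 0.113. Of 11 midbrain and hindbrain GABA factors, 9 were under 0.1, and of 21 neuropeptide genes 19 were. Of 6 factors of the septum and basal forebrain 3 were, and of 12 of the lateral eminence and amygdala 4. Ebf1 among the last had a mean of 4.37 and was at 24.6 in group 8 and at 0.365 in the other residual nuclei. Of the peptides, Penk was at 0.284 ± 0.430, and 1 library, fresh brain with preindex, was at 1.24 against 0.0161 to 0.207 in the other 6. These levels are not scaled by gene length, so that they give no order of the genes, and low ones rest on few UFIs.

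Residual GABA nuclei made up a smaller share of the libraries with preindex, a difference that did not hold after adjustment for the 2 factors tested. The share was 3.71% and 3.88% in the frozen libraries without preindex, 4.40% and 4.08% in the fresh libraries without preindex, 2.91% and 3.05% in the frozen libraries with preindex and 2.42% in the fresh library with preindex. Every library with preindex was below every library without. The means were 2.80 ± 0.333% (SD, n = 3) and 4.02 ± 0.296% (n = 4), a difference of -1.22 percentage points with a two-sided exact permutation p of 0.0286, the smallest that the 35 splits of 7 libraries allow, and 0.0571 once adjusted over primer and storage. Within frozen and within fresh libraries alone the order was the same, and an exact permutation test there cannot reach 0.05.

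Groups 2 and 8 differed most in share between primers. Without group 8 the shares with and without preindex were 2.80 ± 0.333% and 3.30 ± 0.990%, which overlapped, and the difference of -0.503 points had an exact permutation p of 0.429. Without groups 4, 7 and 8 the difference was -0.870 points, with an exact permutation p of 0.171. Group 2 made up 0.198 ± 0.221% of nuclei with preindex (n = 3) and 1.06 ± 0.171% without (n = 4), with no overlap and an exact permutation p of 0.0286, or 0.257 adjusted over the 9 groups. Group 8 was at 0% against 0.718 ± 0.717%, with an adjusted exact permutation p of 0.309. The primer and the brain tissue that went into each library cannot be told apart as sources of these differences.

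**Figure D3:**
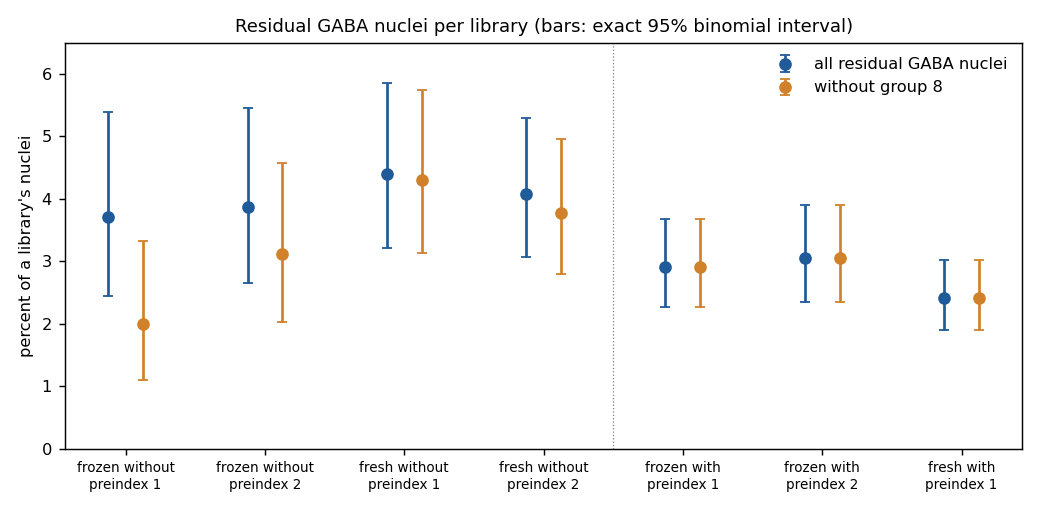
Residual GABA nuclei as a percentage of all nuclei of each library (y axis), with exact 95% binomial intervals that cover counting error only, for all of them (blue) and without group 8 (orange), in 7 libraries (x axis). With group 8 the 3 libraries with preindex, on the right, lie between 2.42% and 3.05% and below all 4 others; without it, frozen without preindex replicate 1 falls to 2.00%.

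Storage showed no such separation. The share was 3.39 ± 0.477% in frozen (n = 4) and 3.63 ± 1.06% in fresh brain (n = 3), with overlapping libraries, a difference of -0.243 points and a two-sided exact permutation p of 0.714. Each nucleus thinned to 5000 UFIs gave +0.453 points in place of this, with p = 0.400 in the same exact test. Without group 8 the storage difference was -0.723 points (exact permutation p = 0.229). Without groups 4, 7 and 8 it was -0.624 points (exact permutation p = 0.343), and libraries overlapped in both settings.

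The depth of residual GABA nuclei lay above that of other GABA nuclei in some libraries and below it in others. Their median was 13607 against 9550.5 UFIs in frozen without preindex replicate 1 and 24834 against 28167 in fresh without preindex replicate 2. The difference of library medians was 34.4 ± 2228 UFIs (SD over 7 libraries), with a two-sided exact paired permutation p of 0.906. At 3000 UFIs drawn per nucleus, they had 33.0 ± 51.3 more genes, higher in 6 of 7 libraries, with an exact paired permutation p of 0.156, or 0.312 adjusted over both measures, where the smallest possible is 0.0156. Frozen without preindex replicate 1, with 46.2% of its residual nuclei in group 8, was the exception. Leaving out single libraries gave 25.2 to 51.3 genes, with exact paired permutation p of 0.188 to 0.313 for 6 of them and of 0.0313, the smallest possible, without the exception, which leaves 6 libraries of 1 direction by construction.

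Gene expression was then compared with 3 other classes of nuclei from the same libraries, using UFIs summed per library and class. Rgs9 GABA nuclei (495) met the rule except that Rgs9 was at least 2 per 10000. Interneuron-rule GABA nuclei (1453) had Rgs9 under 2 and Adarb2 or Erbb4 at 5 or more, or at least 1 Lhx6 UFI. Slc17a6 nuclei (450) had at least 3 UFIs of that transporter, a marker of subcortical glutamate neurons, and under 1 of Gad1 and Gad2 together. The 17 listed interneuron genes summed to 31.3 ± 6.66 in Slc17a6 nuclei, with Adarb2 the most abundant, and to 122 ± 17.7 in interneuron-rule nuclei. Those genes are thus not confined to interneurons. The interneuron-rule class may hold GABA neurons other than cortical and hippocampal interneurons, which was not tested. All 3 comparisons share the residual GABA nuclei, and genes that vary with a gene of the rule are not independent of the selection. Values are UFIs per 10000 unless a log2 fold change is named, and calls are from the edgeR quasi-likelihood test at an adjusted p of 0.05 (Benjamini-Hochberg).

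Against Rgs9 GABA nuclei, residual GABA nuclei had less of striatal projection neuron genes and more of most imprinted genes tested, while channels, receptor subunits and splicing factors differed in both directions. Of 7202 genes tested, 1366 were higher (19%) and 1372 lower (19.1%), 2738 or 38% in all. All 10 tested medium spiny markers were lower, with a median log2 fold change of -3.69 beside 0.0177 over all genes, a direction that the Rgs9 threshold favours. Adora2a, the adenosine receptor of indirect-pathway medium spiny neurons, was at 0.0473 ± 0.0362 against 1.71 ± 0.444, and Gpr6, an orphan receptor, at 0.00607 ± 0.0108 against 0.230 ± 0.0603. Adora2a, Sh3rf2, Tspear and Car12 did not overlap between the classes, as was true of 17.1% of all genes tested.

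Transcription factors of the lateral ganglionic eminence and amygdala were mostly lower. Of 8 tested, 7 were lower and none higher, with a median log2 fold change of -1.66, where 19.1% of all genes were lower. The Rgs9 threshold favours this direction too for factors of medium spiny neurons, and Bcl11b is also among the medium spiny markers counted above. Foxp1, a forkhead factor abundant in medium spiny neurons, had a lowest, median and highest level of 0.683, 2.18 and 2.79 in residual and of 16.4, 20.2 and 24.0 in Rgs9 GABA nuclei. The 2 ranges lay far apart, and the log2 fold change was -3.56 ± 0.206 (SE, edgeR, adjusted p = 1.46e-07). Bcl11b changed by -3.21 ± 0.253 and Meis2 by -2.52 ± 0.371 in the same test. The eighth factor, Ebf1, showed 0.19 with all nuclei and was lower only without group 8, at -2.04 (edgeR, adjusted p = 7.76e-08).

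Imprinted genes, expressed from 1 parental allele, were mostly higher than in Rgs9 GABA nuclei. Of 9 tested, 7 were higher and none lower, with a median log2 fold change of 0.855. Without group 8 all 9 were higher, where 1521 of 7261 genes tested were. Peg3 was between 4.48 and 5.40, with a median of 5.02, in residual and between 1.83 and 2.41, with a median of 2.05, in Rgs9 GABA nuclei. No library of one class reached the range of the other, and the log2 fold change was 1.08 ± 0.102 (edgeR, adjusted p = 4.39e-06). Nap1l5, a nucleosome assembly gene, rose by 1.73 ± 0.144, Ndn, which encodes necdin, by 1.56 ± 0.238, and the long noncoding RNA Meg3 by 0.85 ± 0.129. Of 9 tested against Slc17a6 nuclei 2 were higher, with and without group 8, with a median of -0.07. Of all genes 2.82% were higher there, and without group 8, 353 of 7049. Of 10 tested against interneuron-rule GABA nuclei 2 were higher, with a median of 0.32, where 3.19% of all genes were. Without group 8 there were 5 (Ndn, Snrpn, Peg10, Grb10 and Zdbf2), where 483 of 8475 genes tested were higher.

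Splicing factors and related RNA-binding proteins differed in both directions, also within a family. Of 15 tested, 6 were higher and 4 lower. Elavl2 and Elavl4, neuronal ELAV-type proteins, had log2 fold changes of 2.99 ± 0.181 and 2.92 ± 0.307, without overlap. Celf2 and Rbfox3, the second of which encodes the nuclear antigen NeuN, were lower by edgeR at -1.96 ± 0.197 and -1.33 ± 0.158, also without overlap. Rbfox1 was lower too, at -0.86 ± 0.157, whereas Rbfox2 was higher with all nuclei, by 0.41 ± 0.119, but not without group 8. Elavl3, at 0.23 ± 0.120, and Celf4, at -0.14 ± 0.152, were not called.

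Channels and receptors differed in both directions. Of 8 tested pacemaker, T-type calcium and fast potassium channel genes, 5 were higher and 2 lower. Cacna1g, a T-type calcium channel gene of burst-firing neurons, ranged from 1.28 to 9.63, with a median of 2.39, in residual and from 0 to 0.249 in Rgs9 GABA nuclei, and its sister gene Cacna1i was lower at -1.56 ± 0.137. The log2 fold change of Cacna1g was 4.36 ± 0.390 with all nuclei and 3.54 without group 8, which gave 54.9% of its UFIs. Chrm2, a muscarinic receptor gene with no UFI in group 8, was at 2.25 ± 1.37 against 0.134 ± 0.120. Prlr, the prolactin receptor gene, was at 0.591 ± 0.373 against 0.0265 ± 0.0272, and Ndnf, a secreted neurotrophic factor gene, at 0.262 ± 0.105 against 0.0147 ± 0.0154.

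GABA-A receptor subunits changed from one set to another. Of 12 tested, 4 were higher, such as Gabra3, Gabra5 and Gabrg1, and 4 lower, such as Gabra4, Gabrg3 and Gabrd. The call of Gabra5 was kept in 5 of 7 cases with single libraries left out. Gabra4 was between 0.228 and 1.35 in residual and between 2.77 and 3.96 in Rgs9 GABA nuclei, and Gabrd, the delta subunit of extrasynaptic receptors, was at most 0.0911 against at least 0.297. Both were apart in every library, with log2 fold changes of -2.38 ± 0.227 and -3.35 ± 0.350. Glrb, the subunit that anchors glycine receptors, was higher by 0.46 ± 0.105 and Glra2 by 1.13 ± 0.233. The immediate early gene Egr1 and the postsynaptic gene Homer1, the 2 tested of 10 activity genes, were both lower.

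Genes of GABA handling were called in both directions. Slc32a1 was between 0.351 and 1.01 in residual and between 0.258 and 0.675 in Rgs9 GABA nuclei, which overlap, with a log2 fold change of 0.47 ± 0.145 (edgeR, adjusted p = 0.0214). With single libraries left out, this call was kept in 5 cases of 7. Slc6a11, the GABA transporter GAT-3, was higher by 1.70 ± 0.270 and Abat, the enzyme that degrades GABA, lower at -0.67 ± 0.115. Of 5 tested genes of this list, 2 were higher and 2 lower, and without group 8 the counts were 2 and 1.

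Against interneuron-rule GABA nuclei, fewer genes differed: 278 of 8708 tested were higher (3.19%) and 350 lower (4.02%), together 7.21%. Residual GABA nuclei had less of interneuron markers and of the potassium channel genes Kcnc1 and Kcnc2, and more of Zic1, Gata3 and the imprinted genes Zdbf2 and Peg10. Without group 8, Zic1, Zdbf2 and Peg10 were still called higher, whereas Gata3 was not tested. Of 13 tested genes of the interneuron list, 9 were lower and none higher, with a median log2 fold change of -1.37 beside 0.00855 over all genes, again a direction the rule favours. Vip, a peptide gene of some interneurons, was at 0.00934 ± 0.0133 against 0.338 ± 0.167. Egfr, a growth factor receptor gene, was at 0.0659 ± 0.0479 against 1.19 ± 0.248, and neither gene overlapped between the classes, as in 2.71% of genes tested.

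Kcnc2, a Kv3 potassium channel gene of fast-spiking neurons, had a lowest, median and highest level of 1.00, 3.42 and 6.59 in residual GABA nuclei. The levels were 8.40, 12.8 and 19.0 in interneuron-rule GABA nuclei and 0.323, 0.560 and 0.978 in Rgs9 GABA nuclei. Residual GABA nuclei thus lay between these classes, with no overlap on either side, and the log2 fold changes were -2.19 ± 0.149 and 2.25 ± 0.270. Within the residual GABA nuclei Kcnc2 reached 17.3 in group 7. Without groups 4, 7 and 8 the log2 fold changes were -2.33 and 2.08.

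Srrm4, a splicing factor of neural microexons, was likewise between 1.56 and 2.05 in residual GABA nuclei, between 3.71 and 4.52 in interneuron-rule and between 0.476 and 1.16 in Rgs9 GABA nuclei. Its log2 fold change against the interneuron-rule class was -1.22 ± 0.0938 (edgeR, adjusted p = 3.59e-05). Slc32a1 was close in both classes, at 0.682 ± 0.231 and 0.721 ± 0.250, with a log2 fold change of -0.05 ± 0.118 (edgeR, adjusted p = 0.903), which this number of libraries does not separate from 0.

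Some of the genes that were higher were also those of group 8. Of the 8 named by largest change and no overlap, Plxdc1, Clmn, Strip2 and Ptpn13 had 71.1%, 58.6%, 55.2% and 53.2% of their UFIs in the residual GABA nuclei from group 8. Ptpn13 was not called without it, and D430036J16Rik, with 41.7% of its UFIs from group 8, was not tested without it. Ebf1, a transcription factor gene of Purkinje cells among others, was higher by 2.26 ± 0.375 with group 8 and at -0.04 without. Cdh18, a cadherin gene, was at 24.1 ± 16.9 against 7.55 ± 0.552 and was higher with and without group 8, by 1.44 and 0.95 on the log2 scale. Zic1, at 0.324 ± 0.200 against 0.141 ± 0.0580, was higher by 1.29 ± 0.285, and Glra1 by 1.08 ± 0.257.

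Against Slc17a6 nuclei, 198 of 7021 genes tested were higher (2.82%) and 374 lower (5.33%), together 8.15%. Residual GABA nuclei had more of the genes around GABA packaging, uptake and breakdown, and less of thalamic genes. Slc32a1 had a lowest, median and highest level of 0.351, 0.729 and 1.01, against 0, 0.00600 and 0.0250 in Slc17a6 nuclei. It was higher in 7 of 7 libraries without overlap, as in 3.06% of genes tested, and the log2 fold change was 5.94 ± 0.313 (edgeR, adjusted p = 9.77e-07). Slc6a11 rose by 0.81 ± 0.186, with overlapping groups and a call lost without frozen with preindex replicate 2, fresh without preindex replicate 1 or fresh with preindex replicate 1 (edgeR, adjusted p = 0.0647, 0.0769 and 0.0562), and Abat rose by 0.66 ± 0.102. In all, 4 of 5 tested genes of GABA handling were higher. As the classes were split on Gad1 and Gad2, these genes are not independent of the rule.

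Noncoding genes beside GABA genes were among the largest differences. Gm14204, transcribed from the strand opposite to Slc32a1, was at 0.444 ± 0.119 against 0.0164 ± 0.0146 (log2 fold change 4.67 ± 0.302), and Gad1os, an antisense gene to Gad1, at 0.336 ± 0.144 against 0.00485 ± 0.00737. In GENCODE annotation of GRCm38, Gm14204 spans chr2:158595472-158610723 on the minus strand and Slc32a1 chr2:158610767-158615748 on the plus strand, head to head. Gad1os spans chr2:70489940-70563357 on the minus strand and Gad1 chr2:70553072-70602014 on the plus strand, and they overlap by 10286 bases. The sources used here do not give the strand setting of the counting, so UFIs in that overlap may belong to either gene.

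The 250 bases before the RefSeq start of Slc32a1 are shown because both transcripts start at their end. They lie at chr2:158610508-158610757 (GRCm38.p6, plus strand), and capitals mark the 34 bases between the start of Gm14204 and that of Slc32a1.
Slc32a1 promoter: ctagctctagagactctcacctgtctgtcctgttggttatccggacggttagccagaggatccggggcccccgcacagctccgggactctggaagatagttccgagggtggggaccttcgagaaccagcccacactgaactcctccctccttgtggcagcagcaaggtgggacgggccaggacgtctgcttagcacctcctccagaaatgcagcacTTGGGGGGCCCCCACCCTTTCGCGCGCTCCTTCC
The window has a GC content of 62.4%, beside a median of 52.4% over 32851 mouse promoters of the same length. Searched on both strands, the letters TATAAA, held by 12.4% of all these promoters, are not in this window. Nor are GGGCGG, which 32.7% of them hold, and CCAAT, which 33.8% hold.

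The genes that were lower were those of thalamic and other Slc17a6 neurons. Tcf7l2, a transcription factor of thalamic glutamate neurons, was at 0.310 ± 0.267 against 5.95 ± 0.624, and Synpo2, an actin-binding protein gene, at 0.103 ± 0.0449 against 3.53 ± 0.919. Both were apart in every library, with log2 fold changes of -4.54 ± 0.408 and -5.06 ± 0.185. The LIM factor gene Lhx9 was at 0.00204 ± 0.00539 against 0.327 ± 0.134. Of 5 tested thalamic markers, 4 were lower, with a median of -3.46 beside 0.00675 over all genes. Kcnc2 was lower here too, at -2.04 ± 0.194, as were Gabrb2 at -0.55 ± 0.102 and the pacemaker channel gene Hcn4 at -1.42 ± 0.174.

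In all 3 comparisons, 25 genes were higher in residual GABA nuclei. Of the 12 ranked first by the smallest of their 3 fold changes, Arhgef33, Myo10, Zbtb46, Stac and Nptx1 had at least 50% of their UFIs in residual nuclei from group 8, up to 92.1% for Arhgef33. Without group 8, Col23a1, Cpa6, Gfra2, Gm13481, Nxn and Prdm16 were still called higher in all 3, as were 15 of the 25, within a set that then counted 48. Without groups 4, 7 and 8, 7 of the 12 were called in all 3, namely Col23a1, Cpa6, Gfra2, Gm13481, Nxn and also Myo10 and Zbtb46, but not Prdm16, within a set of 52. Cpa6, Prdm16, Nxn and Col23a1 were low in both frozen libraries without preindex, where groups 3, 6, 7 and 9 have no nuclei. Prdm16, a transcriptional regulator, was at 0.0228 and 0.177 there and at 0.835 to 3.56 in the other 5 libraries, and Cpa6, a carboxypeptidase gene, at 0.114 and 0.145 against 0.740 to 0.949.

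Gfra2, the co-receptor of neurturin, was the gene of the 12, with Dgkg, whose level did not overlap with any of the 3 classes. Its lowest, median and highest levels were 0.726, 0.949 and 1.79 in residual GABA nuclei, 0, 0.0727 and 0.161 in Rgs9, 0.381, 0.459 and 0.479 in interneuron-rule and 0.206, 0.472 and 0.687 in Slc17a6 nuclei. The log2 fold changes were 3.26 ± 0.227, 1.23 ± 0.142 and 1.17 ± 0.193 (edgeR, largest adjusted p = 0.00303), and 3.24, 1.22 and 1.17 without group 8. Dgkg, a diacylglycerol kinase gene, was at 6.65 ± 1.96, and its difference from interneuron-rule nuclei was not called without group 8 (edgeR, adjusted p = 0.0912).

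Among listed genes, Gabrg1, the gamma-1 subunit of the GABA-A receptor, and the imprinted gene Zdbf2 were called higher in each comparison. Gabrg1 was at 0.759 ± 0.423 in residual GABA nuclei and at 0.167 ± 0.0858, 0.384 ± 0.0584 and 0.364 ± 0.171 in the Rgs9, interneuron-rule and Slc17a6 classes. Its lowest library, frozen without preindex replicate 1 at 0.159, lay inside the range of Rgs9 GABA nuclei and below all libraries of the other 2 classes. With single libraries left out, its call against interneuron-rule nuclei was kept in 1 case of 7. Zdbf2 was at 0.950 ± 0.250 against 0.561 ± 0.0888, 0.531 ± 0.0841 and 0.633 ± 0.133, and in groups it ran from 0.0884 in group 8 to 1.54 in group 4. Its log2 fold changes were 0.60 ± 0.135, 0.85 ± 0.122 and 0.59 ± 0.131, and all 3 were larger without group 8, at 0.75, 1.01 and 0.76.

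**Figure D4:**
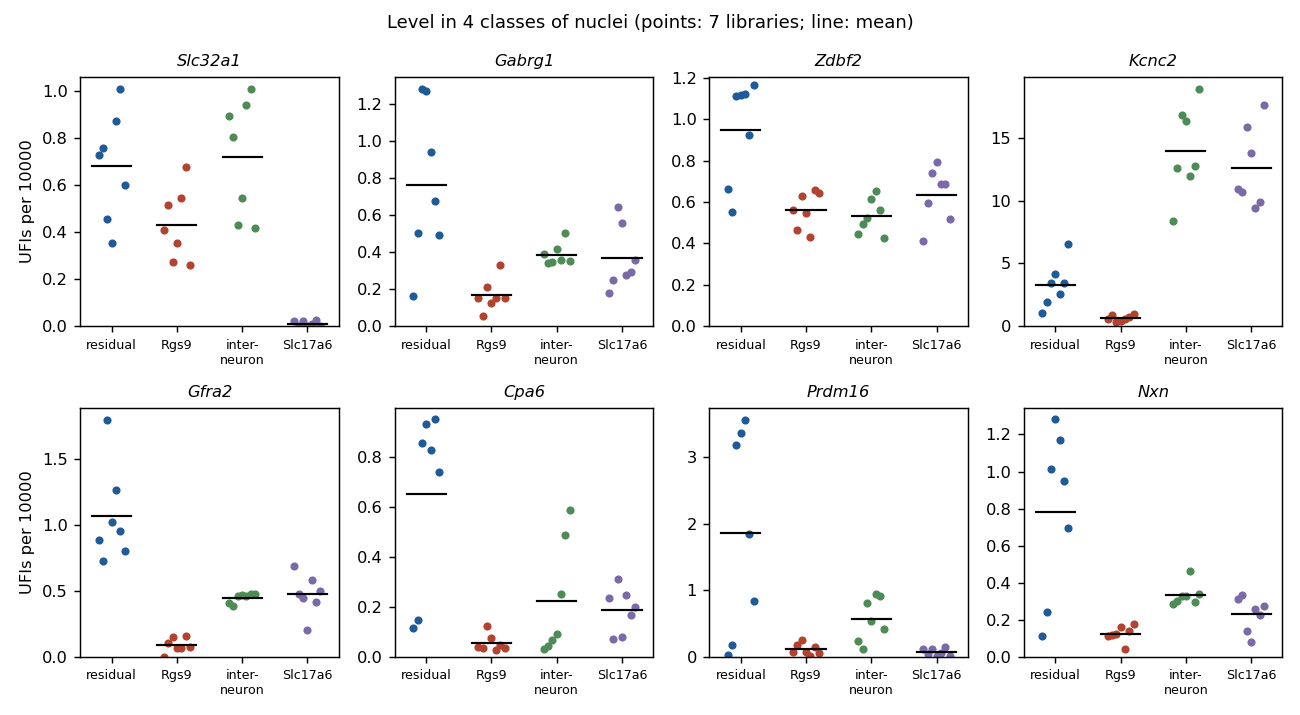
Level of 8 genes (UFIs per 10000, y axis, from 0) in residual GABA nuclei, Rgs9 GABA nuclei, interneuron-rule GABA nuclei and Slc17a6 nuclei (x axis); each point is 1 of 7 libraries and the line is their mean. Gfra2 is apart from the other classes in every library, Kcnc2 lies between Rgs9 GABA nuclei and the other classes, and Cpa6, Prdm16 and Nxn have 2 low libraries, those of frozen brain without preindex.

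Within the residual GABA nuclei, the primer was compared with storage as a term in the same edgeR fit. The primer carries a handle, a preindex that tells wells apart, and random bases; the preindex, in capitals, is the part that libraries without preindex lack, and the sequence is the one in the oligo table of the study.
Preindexed random RT primer: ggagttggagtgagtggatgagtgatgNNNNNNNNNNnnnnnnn
The handle has 27 bases, the preindex 10 and the random end 7.

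With preindex, 24 of 8584 genes tested were higher (0.28%) and 182 lower (2.12%), together 206 or 2.4%. The lower genes included many of group 8: 115 of the 182 had at least 50% of their UFIs from group 8, and 5 of the 6 listed Purkinje markers were called. Car8 was at 27.6 and 13.0 in the frozen and 1.89 and 4.19 in the fresh libraries without preindex, and at 0.0285, 0.114 and 0.0315 in those with preindex. The primer groups did not overlap for Car8, as for 13.9% of genes tested. Atp2a3 and Ppp1r17 had no UFI in the 3 libraries with preindex and 1.76 ± 1.66 and 0.555 ± 0.432 in the 4 without, with 98.4% and 94.7% of their UFIs from group 8. Summed over the residual GABA nuclei, the 6 Purkinje markers were at 324 and 189 in the frozen libraries without preindex and at 22.3 to 66.2 in the other 5.

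Genes higher with preindex included some that lead groups 4 and 7. Penk was at 0.185, 0.207 and 1.24 in libraries with preindex and at 0.0161 to 0.176 in those without. Sox6, a transcription factor of interneurons, was at 1.41, 2.58 and 3.17 against 0.129 to 1.02. Neither gene overlapped between primers, with log2 fold changes of 3.05 ± 0.314 and 2.48 ± 0.363 (edgeR, adjusted p = 0.00130 and 0.00801). Cntnap3, Satb1 and Bcl11b were also higher, by 1.65, 1.46 and 1.35 on the log2 scale.

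Without group 8, 14 of 8807 genes were called in place of 206, 12 lower and 2 higher with preindex, and without groups 4, 7 and 8, 5 genes were called. The 2 that stayed higher were Sox6, at 2.15 ± 0.328, and Penk, at 2.88 ± 0.345, and without groups 4, 7 and 8 Sox6 was at 0.09 while Penk was not tested. Those that stayed lower included Fat2, a listed marker of cerebellar granule neurons with the most negative fold change, which over all residual nuclei was at 0.524 and 0.420 in the frozen and 0.158 and 0.154 in the fresh libraries without preindex and had no UFI in those with preindex. The 5 granule neuron markers, of which Etv1 was the most abundant and none was at 0, summed to 1.02 and 0.823 in the frozen and 0.315 and 0.501 in the fresh libraries without preindex and to 0.0570, 0.207 and 0.221 with preindex. The other classes showed a like pattern. In frozen libraries without preindex the sums were 1.88 and 1.59 in interneuron-rule, 1.83 and 1.50 in Slc17a6 and 1.42 and 0.531 in Rgs9 nuclei. With preindex they were 0.298 to 0.373, 0.351 to 0.417 and 0.0873 to 0.297 in the same order. The part of these markers in the result was not tested. Also lower were the adhesion gene Cd44 at -2.66 ± 0.215, the elongation factor gene Eef2 at -1.59 ± 0.252, the mitochondrial leucyl-tRNA synthetase gene Lars2 at -1.26 ± 0.194 and the small nuclear RNA Rn7sk at -1.13 ± 0.182. Slc6a5, the glycine transporter of group 5, was at 0, 0 and 0.0158 with preindex and at 0.0928 to 0.387 without. Its call with all nuclei was kept in 3 of 7 cases with single libraries left out. Without groups 4, 7 and 8 its log2 fold change was -5.505 and was not called (edgeR, adjusted p = 0.227). Differences in the make-up of the nuclei and in expression per nucleus cannot be told apart in summed counts.

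**Figure D5:**
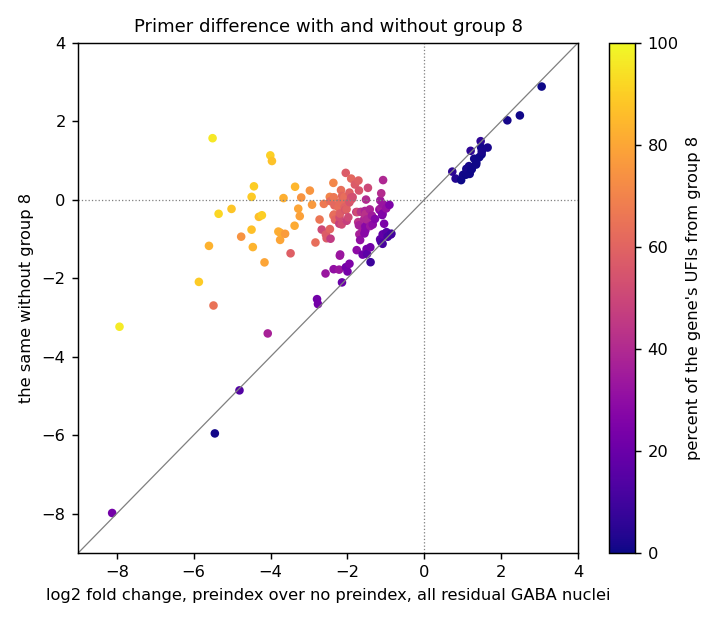
Log2 fold change of preindex over no preindex in all residual GABA nuclei (x axis) and without group 8 (y axis), for the 161 of 206 called genes that could be tested both ways; colour gives the percentage of the gene's UFIs in residual GABA nuclei from group 8, and the diagonal marks equal values. The lower genes with the most UFIs from group 8 lie far above the diagonal, closer to 0 on the y axis than on the x axis. Most of the 24 higher genes lie somewhat below it, as does Kcnc2, at 1.23 with all nuclei and 0.79 without group 8.

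Between frozen and fresh brain, 17 of 8584 genes were called, 0.198% of them, with 15 higher (0.175%) and 2 lower (0.0233%) in frozen brain. The 2 lower were Penk, at -2.49, and Gm10754, at -1.44, and 14 of the 15 higher had at least 50% of their UFIs from group 8, such as Zfp385c, with 97.6%, and Grid2ip, with 92.0%. Frozen and fresh libraries overlapped for every called gene. Penk was at 0.113 ± 0.0965 in frozen and at 0.511 ± 0.636 in fresh brain, where the library with preindex stood apart as given above. Without group 8, 0 genes were called by edgeR, with 388 at an unadjusted p under 0.05, and with all nuclei DESeq2 called 68. The log2 fold changes of Penk and Gm10754 without group 8 were about as large, at -2.40 and -1.38. Group 8 gave 0% and 1.53% of their UFIs. The interaction of storage and primer was called for 314 genes (3.66%), a contrast that rests on the 1 fresh library with preindex, and for 241 without group 8. Of the genes of GABA synthesis, packaging and uptake, 5 that the rule did not use were tested and none was called for storage or for primer, where 0.198% and 2.4% of all genes were. Slc32a1 was at 0.351, 0.456 and 0.599 with preindex and at 0.729, 0.758, 0.872 and 1.01 without. The groups did not overlap, as in 13.9% of genes tested, and the log2 fold change was -0.83 ± 0.197 (edgeR, adjusted p = 0.0617).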

How the data were processed

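The deposited files hold raw counts of UFIs per gene and nucleus for 7 brain libraries and 34496 genes, without normalization. According to the methods of the study, the authors trimmed poly-A tails with cutadapt, took as cells the barcodes above a minimum number of reads, set by hand from a UMI-tools whitelist, ran STAR, and used only reads with 1 position, which featureCounts placed in whole genes and UMI-tools collapsed to UFIs. For patient tissue they also describe limits on UFIs and genes per cell, set by hand against poor cells and doublets, and a filter on rarely detected genes. Whether these were applied to the brain files is not given in the sources used here. The submitters' processing notes also list Scanpy and the builds GRCh38, GRCm38 and mm10. The text of the methods names the human build at this step, and the mouse annotation and strand setting of the counting are not given in the sources used here. Because counts cover introns and exons of whole genes, long genes gather more UFIs, and levels of different genes are not on 1 scale. How the cutoff set the number of nuclei in each brain library is not given in the sources used here, and a share has that number as its denominator. Libraries of mixed cell lines were not used here.

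All deposited nuclei were kept, and no doublet caller was run. Nuclei were selected by the rule on UFIs per 10000. The members and gene lists were chosen with earlier results of these data known, so the lists are described by counts and medians, without a set test. Groups were found with leidenalg 0.10.2 on log values of 2000 variable genes, 30 components and 10 neighbours at a resolution of 0.6. A group took the name of a class when at least 3 of its markers, and 50% or more of those found in 10% of the nuclei, were 2-fold above the other selected nuclei with 1 or more among the 10 leading genes, a rule written after the groups were seen. Group 2 met it for the thalamic list but lacked Slc17a6 and was not named.

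UFIs were summed per library and class, filtered with filterByExpr and TMM-normalized, and edgeR 4.0.16 (glmQLFit, glmQLFTest) was run in R 4.3.3, with library and class, or storage and primer, as terms, and Benjamini-Hochberg adjustment over all genes tested. The fit was tested on simulated data. In the class comparisons, rule genes, Slc17a6 and the 3 given markers were left out of the counts of calls. Shares and library medians were compared by two-sided exact permutation tests over libraries in scipy 1.17.1. Shares carry exact 95% binomial (Clopper-Pearson) intervals, which cover counting error only, and a count of 0 in a library of n nuclei allows 3 of n.

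Named genes are those of the lists, up to 12 higher in all 3 class comparisons ranked by the smallest fold change and at a mean of at least 0.1 UFIs per 10000, up to 8 per direction and class comparison with the largest change, a mean of at least 0.2 per 10000 and no overlap, up to 6 per direction for storage and primer with at least 0.1 per 10000 and no overlap, and up to 10 leading genes per group. Genes named without group 8, and Gm10754, Grid2ip and Zfp385c for storage, were chosen after their values were seen. Alternatives were DESeq2 1.42.0, scaling by the upper quartile, all genes without the low-count filter, other thresholds of the rule, thinning to 5000 UFIs, leaving out nuclei with glutamate transporter or kidney and liver UFIs, no library block, a replicate block and leaving out each library. Leaving out group 8, or groups 4, 7 and 8, was chosen after seeing the data. Some genes that the rule would name are not reported here.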

Additional observations from a re-analysis of the deposited data

Results flagged for a closer look

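Of 193 sets of libraries examined, 5 had 1 library far from the others, and chance alone gives about 1 in 20. These are log2 ratios per library of residual GABA nuclei over another class, with 0.05 UFIs per 10000 added to both. For Col23a1, a collagen gene, against Rgs9 GABA nuclei, frozen without preindex replicate 1 was at -0.572 and the other 6 libraries at 1.42 to 2.87. For Foxp1 in the same comparison it was at -4.81, beside -3.41 to -2.81 in the others. The same library has 46.2% of its residual GABA nuclei in group 8 and none in groups 3, 6, 7 and 9, and the part of this in the ratios was not tested.

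For Penk against Rgs9 GABA nuclei, fresh with preindex replicate 1 was highest at -1.20, beside -5.20 to -3.78. The noncoding gene Gm13481 against Slc17a6 nuclei was at -1.09 in frozen without preindex replicate 2 and at 1.02 to 1.88 elsewhere. Rbfox2, a splicing factor, against Slc17a6 nuclei was highest at 0.707 in frozen with preindex replicate 1, beside 0.317 to 0.445.

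The interaction term of storage and primer in edgeR was first examined for 21 of the named genes, where Pvalb and Itpr1 were flagged. The interaction was -4.51 on the log2 scale for Pvalb (adjusted p = 0.0488) and -2.82 for Itpr1 (adjusted p = 0.0240). Both genes have their highest level of the 9 groups in group 8. Without it the interaction was -4.94 for Pvalb and -0.74 for Itpr1, neither of them called. Other listed genes are given because they were called too with all nuclei: Ebf1 (-4.26), Glra1 (-2.80), Meis2 (3.03), Dlx6os1 (2.69), Gabrg1 (2.45) and Gabra4 (2.22). They were picked by that outcome. How many listed genes were tested is not given here, so these calls cannot be set against the share over all genes given above. Without group 8 Ebf1, at -1.76, was not called. The others stayed called, at -3.31 for Glra1, 2.42 for Meis2, 2.07 for Dlx6os1, 1.85 for Gabrg1 and 2.24 for Gabra4. Without groups 4, 7 and 8 Ebf1 was called, at -4.18, and Gabrg1, at 1.695, was not. Fresh brain with preindex is 1 library.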

How the results depend on the processing

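Counts moved most for storage and primer. Beside 17 genes for storage, DESeq2 called 68, no filter on low counts 413, a rule with Gad1 and Gad2 at 5 per 10000 28, and leaving out group 8 or groups 4, 7 and 8 called 0; single libraries left out gave 0 to 866, each moving the count by over 1.5 times, with 0 without either fresh library without preindex and 866 without fresh with preindex replicate 1. Beside 206 for the primer, these were 380 (DESeq2), 865 (no filter), 14 without group 8 and 5 without groups 4, 7 and 8, with 40 to 1333 for single libraries, 40 without frozen with preindex replicate 2, 1333 without fresh with preindex replicate 1 and within 1.5 times, at 243, only without fresh without preindex replicate 1. Replicate numbers share only a number, as deviations correlated between -0.0488 and 0.00993; with the replicate block the calls were 6 for storage and 165 for primer.

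Against interneuron-rule nuclei, 628 genes became 1300 without a filter, 991 without group 8, 955 without groups 4, 7 and 8, and 347 to 870 without single libraries, beyond 1.5 times without frozen with preindex replicate 1 (380) and fresh without preindex replicates 1 (347) and 2 (369); against Slc17a6 nuclei, 572 became 1250 without a filter and 342 to 703, beyond 1.5 times without fresh without preindex replicate 2 (342). Genes higher against interneuron-rule nuclei, 278, became 483 without group 8, 113 and 121 without fresh without preindex replicates 1 and 2, 144 and 161 without frozen with preindex replicates 1 and 2, and 430 without frozen without preindex replicate 1; against Slc17a6 nuclei, 198 became 353 without group 8, 109 and 98 without fresh without preindex replicates 1 and 2 and 120 without frozen with preindex replicate 2, and the 374 lower there became 244 without fresh without preindex replicate 2. Without groups 4, 7 and 8, 424 were higher and 531 lower, beside 350, against interneuron-rule nuclei. The primer difference in share had a p above 0.05 at a threshold of 5 for Gad1 and Gad2 (-0.643, p = 0.0857), after thinning (-0.978, p = 0.0571), without group 8 (-0.503) and without groups 4, 7 and 8 (-0.870), all in the exact permutation test, and lay between -1.35 and -1.03 without single libraries, where the test cannot reach 0.05. That of storage was 0.453 after thinning, -0.723 without group 8 and -0.624 without groups 4, 7 and 8. Without single libraries it ran from -0.850 to 0.141. The depth difference ran from -636 to 596 UFIs and from 25.2 to 51.3 genes.

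For named genes, 2365 values under alternatives kept direction and side of the threshold, 204 fell short of it, 2 passed it and 4 turned: Ebf1 against interneuron-rule nuclei at -0.0381 without group 8 and -0.859 without groups 4, 7 and 8, and, without groups 4, 7 and 8, Strip2 there at -0.0244 and Cacna1g for the primer at 0.00764. Other causes were not tested.

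With 26 to 75 nuclei in a library, genes near 0.1 UFIs per 10000 rest on a few UFIs each, so their values are the least precise. The 1 fresh library with preindex has no replicate.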
